A study of Mus musculus with 6 samples.

Results

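Oxidative phosphorylation is the step of respiration in which mitochondria turn electrons from food into ATP. Complexes I and II pass electrons to ubiquinone, complex III passes them on to cytochrome c, complex IV hands them to oxygen, and complex V, the ATP synthase, uses the proton gradient that complexes I, III and IV build. Most subunits are encoded in the nucleus, made in the cytoplasm and imported, and their genes are expressed in nearly every cell. The genes described here are the nuclear-encoded oxidative phosphorylation (OXPHOS) genes of these 5 complexes, chosen by symbol alone: a gene is a member where its symbol begins with Nduf followed by a, b, c, s or v and a digit, with Sdha to Sdhd, with Uqcr, with Cox4 to Cox8, or with Atp5. The pattern found 86 of the 23366 genes in the count tables. Of these, 35 encode subunits of complex I, 4 of complex II, 8 of complex III, 18 of complex IV and 15 of complex V, and 6 share a symbol stem without being subunits (Atp5s, Atp5sl, Cox7a2l, Ndufa4l2, Sdhaf1 and Sdhaf2).

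RNA came from whole dissected palatal shelves, the paired outgrowths that form the roof of the mouth, of mouse embryos at embryonic day E14.25. A group of 3 knockout (KO) libraries, numbered 1, 2 and 3, came from Kmt2dfl/fl Wnt1-Cre embryos, and a group of 3 wild type (WT) libraries, numbered 2, 3 and 4, from embryos labelled WT with no further allele given. Kmt2d encodes a histone H3 lysine methyltransferase, and Wnt1-Cre is active in the neural crest, from which most palatal mesenchyme derives, so epithelial, endothelial and blood cells of the KO shelves keep the gene. The labels call the samples of a group biological replicates and do not say whether litters were shared, so the p-values below measure the spread between these libraries.

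Between 12721979 and 20203309 reads were counted in genes in the KO libraries, and between 20785074 and 24916079 in the WT libraries. KO replicate 2 stood apart: 47.5% of its counted reads fell outside annotated genes, against 18.1% and 14.20% in KO replicates 1 and 3 and 12.3 to 15.4% in the WT libraries. The ribosomal RNA precursor Rn45s took 18.6 to 35.1% of gene counts in the KO libraries and 16.2 to 20.7% in the WT libraries. Levels are given as CPM, which is the count scaled to a common library total, here with the trimmed mean of M-values (TMM) as the scaling between libraries. Kmt2d, listed under its older symbol Mll2, had 254, 539 and 193 CPM in KO replicates 1, 2 and 3, against 197, 211 and 171 CPM in WT replicates 2, 3 and 4. Its count covers the whole gene and does not separate the floxed exons, so it does not check the labels (log2 fold change 0.77, SE 0.35, edgeR adjusted p = 0.368). Counts and medians over the genes are given with all 6 libraries and again without KO replicate 2, as are the fold changes of most genes named.

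Promoters of respiratory genes are known for binding sites of NRF1, of ETS factors such as GABPA, and of YY1. Of the 86 genes, 71 had a window from 250 bases before to 50 bases after the start site in RefSeq (GRCm38.p6). The NRF1 motif, GCGC followed by any base and TGCGC, searched on both strands like the other motifs, was present in the windows of 17 of these 71 genes (23.9%), against 5.19% of 27025 genes with a window and 10.9% of the 10399 of them that passed the count filter used for testing. The YY1 motif AAGATGG was present in 12 of 71 (16.9%), against 7.28% of all genes with a window and 7.98% of the filtered ones. The ETS motif CCGGAAGT was present in 5 of 71 (7.04%), against 4.31% and 8.26%. At least 1 of the 3 motifs, counted separately where they share bases, was in 32 of the 71 genes (45.1%), against 15.5% of all genes with a window and 24.6% of the filtered ones. By complex, the NRF1 motif was in 7 of 31 windows of complex I genes, 2 of 3 of complex II, 1 of 5 of complex III, 1 of 13 of complex IV and 6 of 14 of complex V. The window of 1 gene from each complex is shown to let these letters be read in place. Uqcrc1 and Cox6a1 are the only genes of complexes III and IV with an NRF1 match, and Ndufs6, Sdhd and Atp5g3 are described with their values below. Capitals mark the NRF1 and YY1 motifs, each window runs 5′ to 3′ on the strand of its gene, and a match is a string of letters and not a measured binding site.
Ndufs6 (chr13:73328433-73328732, minus strand): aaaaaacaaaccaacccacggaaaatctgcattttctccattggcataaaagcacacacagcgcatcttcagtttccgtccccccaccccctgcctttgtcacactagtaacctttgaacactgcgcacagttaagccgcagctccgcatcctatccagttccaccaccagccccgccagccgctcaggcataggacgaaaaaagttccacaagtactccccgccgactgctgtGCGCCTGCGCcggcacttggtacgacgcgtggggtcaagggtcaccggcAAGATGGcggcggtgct
Sdhd (chr9:50603800-50604099, minus strand): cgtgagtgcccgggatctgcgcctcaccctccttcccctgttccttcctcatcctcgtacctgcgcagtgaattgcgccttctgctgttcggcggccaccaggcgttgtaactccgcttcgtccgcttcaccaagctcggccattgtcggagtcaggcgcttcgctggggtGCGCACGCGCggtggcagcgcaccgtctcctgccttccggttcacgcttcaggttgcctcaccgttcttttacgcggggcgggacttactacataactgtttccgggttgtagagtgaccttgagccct
Uqcrc1 (chr9:108936398-108936697, plus strand): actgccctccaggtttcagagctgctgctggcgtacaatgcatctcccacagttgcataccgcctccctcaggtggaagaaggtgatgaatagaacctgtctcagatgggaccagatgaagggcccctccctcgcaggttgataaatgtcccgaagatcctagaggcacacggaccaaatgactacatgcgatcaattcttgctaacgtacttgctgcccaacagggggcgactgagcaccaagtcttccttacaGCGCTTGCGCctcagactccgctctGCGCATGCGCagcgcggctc
Cox6a1 (chr5:115348909-115349208, minus strand): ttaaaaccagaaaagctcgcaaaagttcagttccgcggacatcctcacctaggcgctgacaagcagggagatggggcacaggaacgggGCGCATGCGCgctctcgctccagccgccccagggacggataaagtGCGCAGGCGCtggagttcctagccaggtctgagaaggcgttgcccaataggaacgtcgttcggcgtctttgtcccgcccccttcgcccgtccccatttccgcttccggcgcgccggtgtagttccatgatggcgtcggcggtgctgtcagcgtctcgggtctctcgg
Atp5g3 (chr2:73911277-73911576, minus strand): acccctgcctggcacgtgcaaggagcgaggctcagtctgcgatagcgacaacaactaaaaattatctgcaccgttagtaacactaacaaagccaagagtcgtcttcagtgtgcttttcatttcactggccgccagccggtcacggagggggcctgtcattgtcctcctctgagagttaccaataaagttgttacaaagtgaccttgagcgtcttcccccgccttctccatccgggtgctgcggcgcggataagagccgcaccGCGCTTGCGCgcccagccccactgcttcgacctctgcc
Uqcrc1 held 2 NRF1 matches, both after the start site, and Cox6a1 held 2, both before it. Ndufs6 was the only one of these 5 genes with a YY1 match.

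No gene of oxidative phosphorylation passed the threshold of adjusted p under 0.05 in either direction when the KO and WT palatal shelves were compared. Counts of 81 of the 86 genes were high enough to test, and 0 were higher and 0 lower in KO by edgeR's quasi-likelihood test with Benjamini-Hochberg adjustment over all 14233 genes tested, where the backgrounds were 0.0984% of genes higher and 0.436% lower. At an unadjusted p under 0.05, 1 of the 81 was lower (Ndufa4l2) and 0 were higher, beside 6.69% and 7.51% of all genes. At an adjusted p under 0.05, DESeq2 and limma voom also called 0 of the 81, beside 3.42% and 0.422% of all genes. Each had 1 gene of the 81 at an unadjusted p under 0.05, beside 15.5% and 13% of all genes. The genes were near their WT levels in 2 of the 3 KO libraries and low in the remaining one.

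The sum of all 86 genes was 5983, 3599 and 5911 CPM in KO replicates 1, 2 and 3, against 5641, 6071 and 6512 CPM in WT replicates 2, 3 and 4. KO replicates 1 and 3 thus lay inside the WT range, and KO replicate 2 lay far below every other library. KO replicate 2 was the lowest of the 6 libraries for 77 of the 81 tested genes, whereas it was lowest for 36.3% of all tested genes. On the log2(CPM + 0.5) scale, the median difference of the 81 genes from the WT mean was 0.0042, −0.79 and −0.049 in KO replicates 1, 2 and 3, and −0.11, −0.0018 and 0.12 in WT replicates 2, 3 and 4. KO replicate 2 also had 47.5% of its counted reads outside annotated genes. The part of library quality in its low values was not tested. Because whole shelves were used, fewer cells rich in these transcripts and less of these transcripts per cell cannot be told apart.

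**Figure D1:**
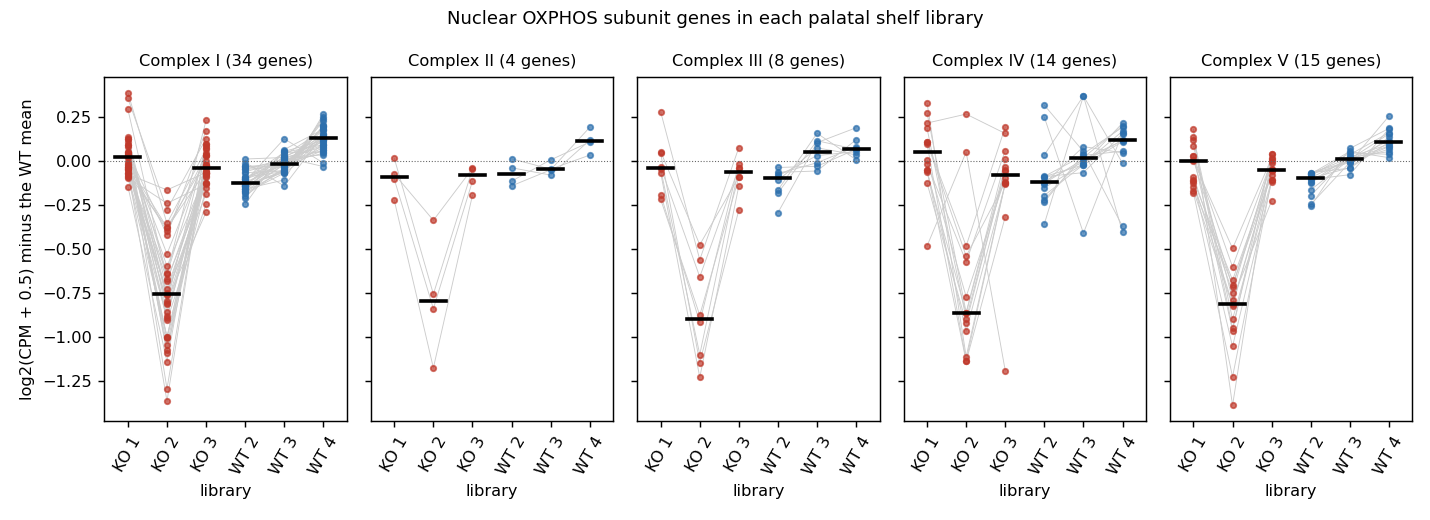
Difference of each tested subunit gene from its WT mean in each library, on the log2(CPM + 0.5) scale, in 1 panel per complex. Each point is a gene, a grey line joins the same gene across libraries, and black bars are medians over the genes. KO replicate 2 was the lowest library for 73 of the 75 genes drawn, while KO replicates 1 and 3 lay around the WT values.

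Leaving out KO replicate 2 brought the fitted differences close to 0 in every complex. With all 6 libraries, the median log2 fold change of the 81 genes, KO over WT, was −0.23, beside 0.011 over all genes tested, and 76 of the 81 were negative, beside 48.5% of all genes. Without KO replicate 2 the median was −0.029 over 82 tested genes, beside 0.016 over 14450 genes, and 53 of the 82 were negative, beside 46.7%. As before, 0 genes were called higher and 0 lower by edgeR, beside backgrounds of 0.554% and 1.57%. At an unadjusted p under 0.05, Sdhc and Ndufa4l2 were lower, 2 of 82 beside 9.27% of all genes, and 0 were higher, beside 7.22%. The smallest adjusted p was 0.286 with 6 libraries and 0.194 without KO replicate 2, both for Ndufa4l2.

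The medians of the 5 complexes lay close together. The median log2 fold change with 6 libraries was −0.22 for complex I, −0.27 for complex II, −0.32 for complex III, −0.25 for complex IV and −0.24 for complex V. Without KO replicate 2 these were −0.019, −0.095, −0.083, −0.022 and −0.048. With 6 libraries, the SD between replicates of the median of each complex was 0.292 to 0.399 on the log2 scale. That SD includes the low values of KO replicate 2 in all 5 complexes. It therefore does not measure the spread of a difference between complexes. No test was made between complexes.

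Intervals of the fold change were narrower for most genes once KO replicate 2, the library lowest in these genes, was left out. They describe the libraries kept and do not bound the difference between genotypes. The 95% interval of the fold change lay within 1.5-fold in both directions for 76 of the 82 genes without KO replicate 2, and for 19 of 81 with it. The 6 genes whose interval reached further without it were Cox4i2, Cox6a2, Cox6b2, Cox7c, Ndufa4l2 and Ndufs5, of which all but Cox7c are low in counts. The median SE of a log2 fold change was 0.102 without KO replicate 2 and 0.215 with it.

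**Figure D2:**
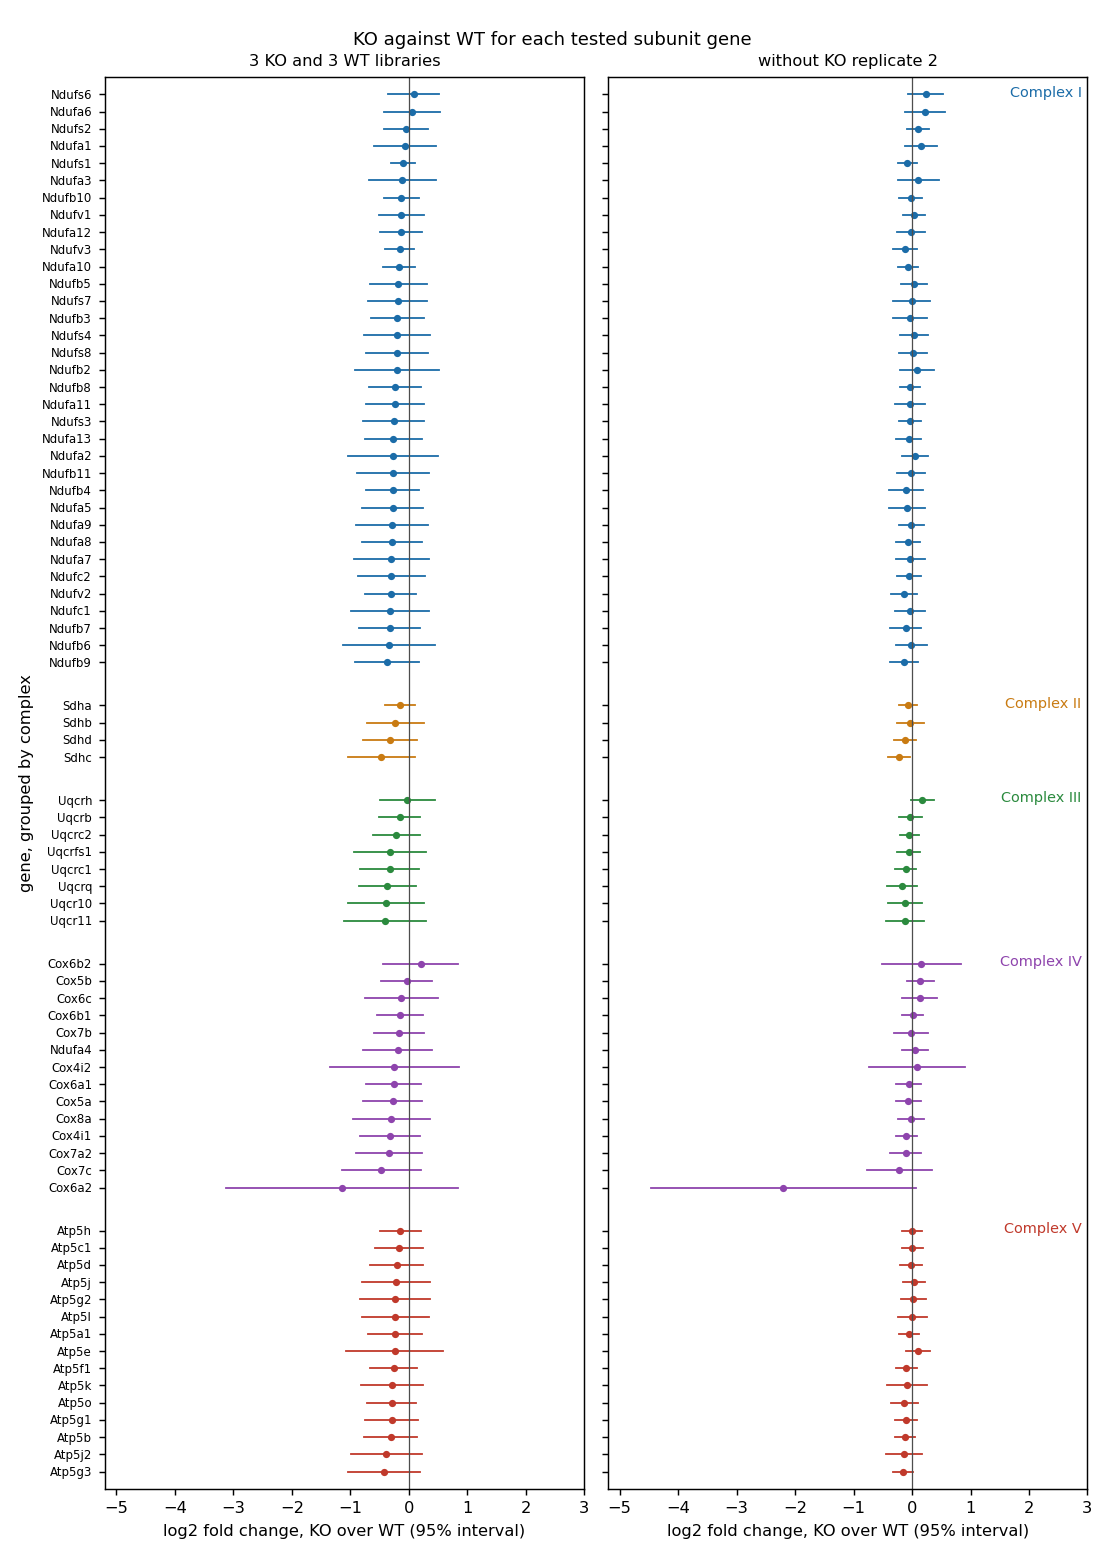
Log2 fold change (KO over WT) and 95% interval of each tested subunit gene, grouped by complex, with 3 KO and 3 WT libraries on the left and without KO replicate 2 on the right. Most intervals on the right are narrower, but those of Cox6a2 and Cox6b2 are wider. The median SE over all tested members, drawn or not, was 0.102 without KO replicate 2 and 0.215 with it. On the right the median of each complex is near 0, while Cox6a2 lies at −2.20.

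Complex I, the NADH dehydrogenase, takes electrons from NADH through a peripheral arm of flavin and iron-sulfur subunits and pumps protons through a membrane arm. With 6 libraries, 32 of its 34 tested subunits had negative log2 fold changes, and without KO replicate 2, 23 of 35. Ndufv2, a core iron-sulfur subunit next to the flavin site, had 80.9, 50.3 and 74.4 CPM in KO replicates 1, 2 and 3, against 76.7, 84.1 and 94.5 CPM in the WT libraries. The groups overlapped, and Ndufv2 had the smallest p of complex I (log2 fold change −0.31, SE 0.18, edgeR adjusted p = 0.451 with 6 libraries and 0.541 without KO replicate 2). Ndufb9, an accessory subunit of the membrane arm, had 44.4, 23.4 and 42.5 CPM in KO, against 42.4, 46.7 and 53.6 CPM in WT. It had the most negative value of the complex, −0.37 (SE 0.24), and −0.14 (SE 0.11) without KO replicate 2. Ndufs6, a zinc-binding accessory subunit, had the most positive value, 0.085 (SE 0.19). Its 35.4, 22.7 and 30.2 CPM in KO, against 24.4, 26.5 and 32.4 CPM in WT, put KO replicate 1 above and KO replicate 2 below every WT library. Without KO replicate 2 its log2 fold change was 0.23 (SE 0.14, edgeR adjusted p = 0.456). Ndufs5, an accessory subunit, had only 13, 4 and 8 reads in KO, against 8, 13 and 9 in WT, and was tested only without KO replicate 2 (log2 fold change 0.59, 95% interval −0.87 to 2.06). Many subunit genes have near-identical processed pseudogenes, and reads aligned to more than 1 place, 18.1 to 30.3% of the counted reads in KO and 18.4 to 20.99% in WT, were set aside in the tables, so a level can be understated.

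In 3 complex I genes the groups did not overlap although KO replicate 2 was less low than for most subunits. Ndufs1, the largest iron-sulfur core subunit, had 79.8, 75 and 80.3 CPM in KO, against 84.8, 85.3 and 82.3 CPM in WT. Its log2 fold change was −0.10 (SE 0.089, edgeR adjusted p = 0.603) and −0.080 (SE 0.071) without KO replicate 2, so the values are separate by a small margin. Ndufv3, an accessory subunit beside the flavin site, had 30.4, 27.4 and 29.6 CPM in KO, against 31.8, 31.7 and 33.9 CPM in WT (log2 fold change −0.16, SE 0.10, edgeR adjusted p = 0.492; −0.12, SE 0.092 without KO replicate 2). Ndufa10, an accessory subunit of the membrane arm, had 63.6, 51.2 and 64.3 CPM in KO, against 65.1, 66.4 and 68.8 CPM in WT (log2 fold change −0.16, SE 0.12, edgeR adjusted p = 0.533; −0.071, SE 0.075 without KO replicate 2). These genes were singled out after their values were seen. Over all tested members the groups did not overlap for 6 genes lower in KO and 1 higher, of 81, and both shares lay under the 11.2% and 12.3% of all genes. Without KO replicate 2 these were 7 genes lower and 3 higher, of 82, beside 15.9% and 18.4% of all genes.

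Complex II, succinate dehydrogenase, is encoded entirely in the nucleus, takes part in the citric acid cycle as well, and pumps no protons. Sdha, its flavoprotein, had 156, 130 and 160 CPM in KO, against 166, 159 and 168 CPM in WT. Sdhb, its iron-sulfur subunit, had 72.9, 42.5 and 69.8 CPM in KO, against 65.4, 69.6 and 82.4 CPM in WT. Both overlapped between groups, with log2 fold changes of −0.15 (SE 0.11) and −0.23 (SE 0.21), and −0.068 and −0.031 without KO replicate 2. Sdhc and Sdhd encode the membrane anchors that hold the ubiquinone site. Sdhd had 61.0, 36.5 and 60.5 CPM in KO, against 60.5, 65.9 and 70.7 CPM in WT (log2 fold change −0.32, SE 0.20; −0.12, SE 0.087 without KO replicate 2). Sdhc had 61.8, 31.7 and 63.0 CPM in KO, against 70.3, 68.3 and 78.4 CPM in WT, with no overlap between the groups. Sdhc had the lowest ratio of the mean of KO replicates 1 and 3 to the WT mean, 0.863, among the 77 genes with a mean of at least 5 CPM. Its log2 fold change was −0.47 (SE 0.25, edgeR adjusted p = 0.407) with 6 libraries and −0.22 (SE 0.085, edgeR adjusted p = 0.237) without KO replicate 2, lower in 3 of 3 and 2 of 2 KO libraries.

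Complex III, the cytochrome bc1 complex, had 8 of 8 negative values with 6 libraries and 7 of 8 without KO replicate 2. Uqcr11, a small subunit at its periphery, had 28.5, 12.5 and 27.1 CPM in KO, against 24.3, 32.2 and 34.1 CPM in WT, and the most negative log2 fold change of the complex, −0.41 (SE 0.30). Uqcrq, a small subunit that contacts cytochrome b, had the smallest p, with 25.9, 16.3 and 28.3 CPM in KO, against 26.6, 32.8 and 31.7 CPM in WT (log2 fold change −0.37, SE 0.21, edgeR adjusted p = 0.440). Both overlapped between groups and moved to −0.13 and −0.17 without KO replicate 2. Uqcrh, the hinge protein that links the complex to cytochrome c, went the other way. It had 111, 61.9 and 96.5 CPM in KO, against 86.3, 93.5 and 94.97 CPM in WT, so KO replicates 1 and 3 lay above every WT library and KO replicate 2 below. Its log2 fold change was −0.027 (SE 0.20) with 6 libraries and 0.17 (SE 0.087, edgeR adjusted p = 0.370) without KO replicate 2. Uqcrc1, a core protein whose promoter window is shown above, had 98.1, 59.1 and 111 CPM in KO, against 106, 111 and 118 CPM in WT.

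Complex IV, cytochrome c oxidase, had 14 of its 18 nuclear genes tested, 13 with negative values using 6 libraries and 8 without KO replicate 2. Cox4i1, the ubiquitous form of its largest nuclear subunit, had 153, 88.1 and 162 CPM in KO, against 157, 165 and 180 CPM in WT (log2 fold change −0.32, SE 0.22, edgeR adjusted p = 0.510; −0.098, SE 0.080 without KO replicate 2). Cox7c, a small membrane subunit, had 64.9, 30.4 and 54.0 CPM in KO, against 52.5, 87.1 and 66.7 CPM in WT, and the groups overlapped. WT replicate 3 alone was high for Cox7c, and its interval without KO replicate 2 ran from −0.78 to 0.34 on the log2 scale. Ndufa4, first assigned to complex I and later placed in complex IV, had 104, 48.9 and 87.8 CPM in KO, against 84.4, 91.0 and 99.2 CPM in WT (log2 fold change −0.19, SE 0.25, and 0.057, SE 0.10 without KO replicate 2).

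Several complex IV subunits have tissue-specific forms, and the palatal shelf used the ubiquitous form in both groups. Cox4i2, the form tied to oxygen-dependent regulation, made up 1.31% ± 0.51 of the reads of the Cox4i1 and Cox4i2 pair in KO and 1.36% ± 0.47 in WT (SD, n = 3 each). Cox6a2, the heart and muscle form, made up 0.833% ± 1.01 of the Cox6a pair in KO and 1.12% ± 0.45 in WT. It had 5, 9 and 0 reads in KO replicates 1, 2 and 3, against 24, 8 and 18 in WT, and the largest but least precise fold change of the tested members without KO replicate 2 (log2 fold change −1.14, SE 0.85, edgeR adjusted p = 0.542; −2.20, SE 1.02, edgeR adjusted p = 0.315 without KO replicate 2). Cox7a1, also a heart and muscle form, had 3, 9 and 9 reads in KO replicates 1, 2 and 3, against 7, 9 and 4 in WT, and Cox8b, another, had 2, 3 and 0 against 1, 2 and 1. Both are too low to test. Cox6b2, known as the testis form of subunit 6B, made up 5.005% ± 1.40 of its pair in KO and 3.80% ± 1.18 in WT, and its log2 fold change, the most positive of the complex, was 0.21 (SE 0.27, edgeR adjusted p = 0.734) and 0.16 (SE 0.30) without KO replicate 2. Cox7b2 had 1 read in all KO libraries and 4 in all WT libraries, and Cox8c, another testis form, had 0 reads in every library, where 3 reads, the limit that a count of 0 allows, correspond to 0.166 to 0.227 CPM in KO and 0.107 to 0.134 CPM in WT. Of the ubiquitous partners, Cox6a1 had 58.6, 34.1 and 54.6 CPM in KO, against 54.9, 55.8 and 65.1 CPM in WT. Cox7a2 had 69.9, 36.9 and 66.2 CPM in KO, against 61.7, 74.7 and 83.0 CPM in WT. Cox8a had 79.97, 33.8 and 68.4 CPM in KO, against 68.3, 79.1 and 77.2 CPM in WT. All 3 were lowest in KO replicate 2 and overlapped between groups, with log2 fold changes of −0.25 (SE 0.20), −0.34 (SE 0.24) and −0.30 (SE 0.28). Without KO replicate 2 these were −0.059 (SE 0.097), −0.11 (SE 0.12) and −0.022 (SE 0.099).

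Marker genes of skeletal muscle, all 14 of which were in the tables, summed to 390, 1606 and 274 CPM in KO replicates 1, 2 and 3, against 655, 324 and 451 CPM in the WT libraries, so the library lowest in OXPHOS transcripts was the one highest in these. The part of muscle in these values was not tested.

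Ndufa4l2, a paralog of Ndufa4 that is known as a hypoxia-inducible gene, was the member with the smallest p in both fits. It had 14, 1 and 14 reads in KO replicates 1, 2 and 3, against 50, 55 and 36 reads in WT replicates 2, 3 and 4, which is 0.886, 0.0757 and 0.773 CPM against 1.78, 2.46 and 1.55 CPM. Every KO library lay below every WT library. The log2 fold change was −1.67 (SE 0.56, unadjusted p = 0.0184, edgeR adjusted p = 0.286), and −1.23 (SE 0.42, unadjusted p = 0.0170, edgeR adjusted p = 0.194) without KO replicate 2, so it did not pass the threshold in either fit. It made up 0.624% ± 0.41 of the reads of the Ndufa4 and Ndufa4l2 pair in KO and 2.08% ± 0.55 in WT (SD, n = 3 each).

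**Figure D3:**
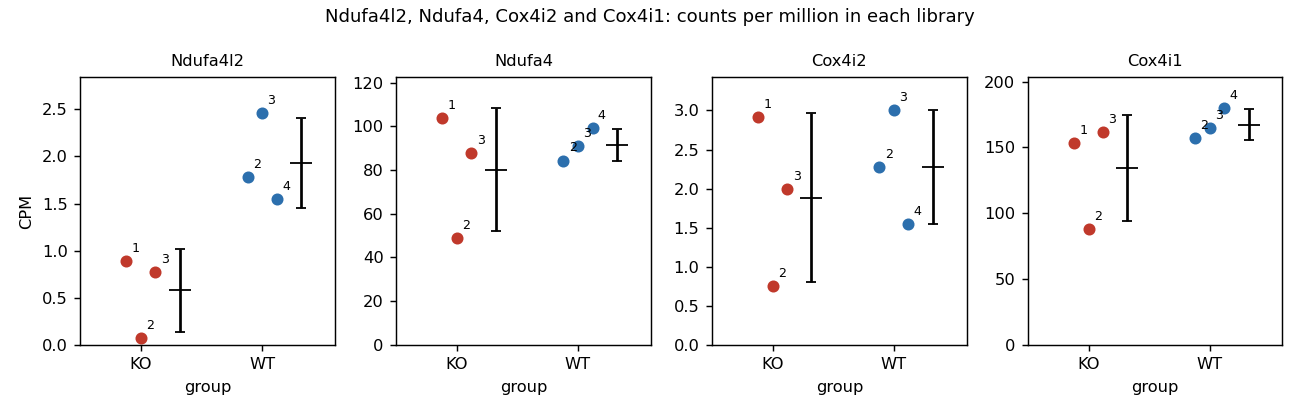
CPM of Ndufa4l2, Ndufa4, Cox4i2 and Cox4i1 in each library, with replicate numbers beside the points and a bar for the mean and SD of each group (n = 3). Ndufa4l2 was 0.0757 to 0.886 CPM in KO and 1.55 to 2.46 CPM in WT with no overlap, while the groups overlapped for the other 3 genes.

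Complex V, the ATP synthase, had 15 of 15 negative values with 6 libraries and 10 of 15 without KO replicate 2. Atp5b, the catalytic beta subunit, had 564, 359 and 612 CPM in KO, against 603, 642 and 658 CPM in WT (log2 fold change −0.31, SE 0.20, edgeR adjusted p = 0.480; −0.12, SE 0.076 without KO replicate 2). Atp5o, the stalk subunit that confers oligomycin sensitivity, had the smallest p of the complex, with 107, 73.0 and 113 CPM in KO, against 104, 122 and 133 CPM in WT (log2 fold change −0.29, SE 0.18, edgeR adjusted p = 0.471; −0.13, SE 0.10 without KO replicate 2). Atp5h, another subunit of the peripheral stalk, had 109, 77.0 and 110 CPM in KO, against 102, 109 and 115 CPM in WT. It had the least negative log2 fold change of the complex, −0.14 (SE 0.15), and −0.0010 (SE 0.077) without KO replicate 2. Atp5e, the epsilon subunit of the central stalk, was the gene most reduced in KO replicate 2 relative to KO replicates 1 and 3 among those of at least 5 CPM. It had 76.2, 25.4 and 69.1 CPM in KO, against 62.9, 65.5 and 74.0 CPM in WT.

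Atp5g1, Atp5g2 and Atp5g3 encode the same mature c subunit of the rotor ring and differ in the import leader that is cut off. Atp5g3 had 122, 59.0 and 129 CPM in KO, against 132, 138 and 147 CPM in WT, with no overlap, and the most negative log2 fold change of the complex (−0.42, SE 0.27, edgeR adjusted p = 0.479; −0.15, SE 0.075, edgeR adjusted p = 0.355 without KO replicate 2). Atp5g1 had 49.5, 30.6 and 52.0 CPM in KO, against 50.9, 55.7 and 55.5 CPM in WT. Atp5g2 had 92.6, 46.2 and 93.3 CPM in KO, against 84.2, 85.8 and 103 CPM in WT. Of the reads of the 3 genes, Atp5g3 took 45.6% ± 1.9 in KO and 48.9% ± 0.73 in WT, Atp5g2 took 34.4% ± 0.56 in KO and 32% ± 1.6 in WT, and Atp5g1 took 20.1% ± 2.1 in KO and 19.1% ± 0.89 in WT (SD, n = 3 each). Atp5g3 was the most read of the 3 in both groups.

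Of the 6 genes that are not subunits, 4 had negative values with 6 libraries and 1 without KO replicate 2. Cox7a2l, which is known to help join complexes III and IV into supercomplexes, had 109, 69.7 and 103 CPM in KO, against 84.9, 90.1 and 108 CPM in WT (log2 fold change −0.010, SE 0.18, and 0.15, SE 0.10 without KO replicate 2). Sdhaf1, an assembly factor that helps load iron-sulfur clusters into complex II, had 11.4, 6.81 and 14.4 CPM in KO, against 11.6, 12.9 and 11.2 CPM in WT. Sdhaf2, which helps attach the flavin to Sdha, had 25.7, 19.4 and 24.5 CPM in KO, against 23.0, 24.02 and 24.4 CPM in WT. For both assembly factors KO replicate 2 was the lowest library and the groups overlapped. Atp5s was the one member higher in every KO library, with 6.96, 8.25 and 6.96 CPM in KO, against 5.87, 6.45 and 6.20 CPM in WT (log2 fold change 0.26, SE 0.17, edgeR adjusted p = 0.497; 0.17, SE 0.18 without KO replicate 2). Atp5sl had 15.8, 17.6 and 12.7 CPM in KO, against 13.6, 12.4 and 15.9 CPM in WT. Atp5s and Atp5sl were not low in KO replicate 2, unlike nearly all the subunits.

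The order of the levels was the same in both groups as far as the complexes go. Per kilobase of transcript, the median level was 106 CPM per kb in KO and 124 in WT for complex V, 86.7 and 107 for complex IV, 54.3 and 67.8 for complex III, 47.1 and 55.1 for complex II, and 42.5 and 48.8 for complex I. The highest single levels were those of Atp5b, with 267 CPM per kb in KO and 331 in WT, and Atp5a1, the alpha subunit, with 219 and 258. Cox4i1 followed with 178 CPM per kb in KO and 222 in WT, and Cox6c with 184 and 201. Between neighbours in this order the libraries overlap: Cox6c had 109 to 241 CPM per kb in KO and 174 to 232 in WT, and Cox4i1 117 to 214 in KO and 208 to 239 in WT. Within complex I the levels spanned a narrow range, 22.3 to 70.7 CPM per kb in KO and 25.7 to 80.3 in WT, with Ndufc2, a subunit of the membrane arm, at the top. Ndufc2 had 54.0, 27.2 and 52.2 CPM in KO, against 50.9, 53.9 and 59.8 CPM in WT (log2 fold change −0.30, SE 0.25; −0.056, SE 0.091 without KO replicate 2).

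**Figure D4:**
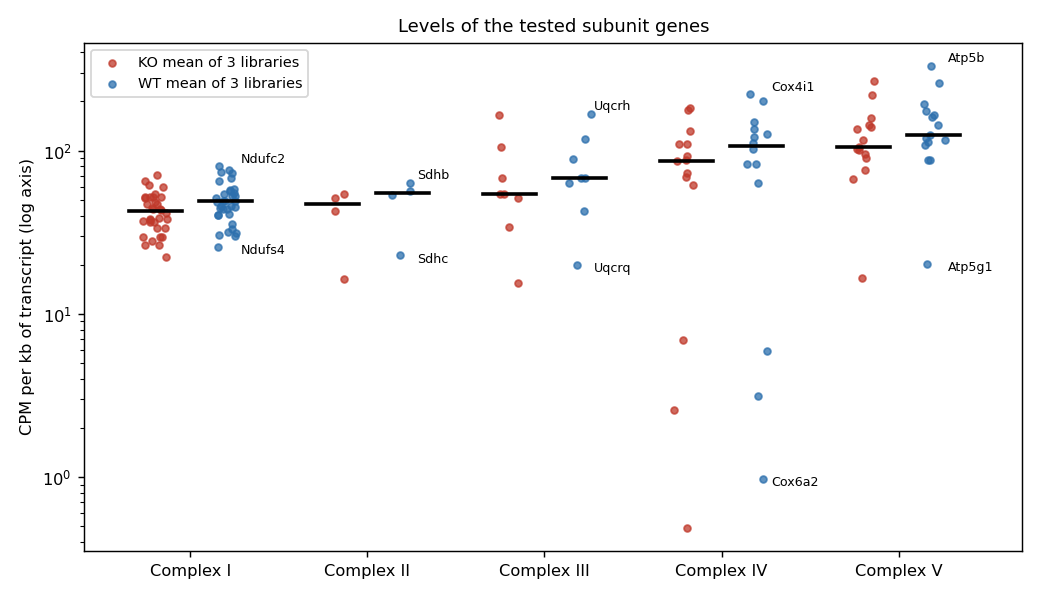
Mean level of each tested subunit gene in CPM per kb of transcript, on a log axis, by complex, with KO means left of WT means (3 libraries each) and black bars at the medians. Medians were highest for complex V, 106 CPM per kb in KO and 124 in WT, and lowest for complex I, 42.5 and 48.8, and the genes far below the rest in complex IV are Cox6b2, Cox4i2 and Cox6a2.

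The gap between KO replicate 2 and the other KO libraries was shared widely among the genes. Over the 77 genes with a mean of at least 5 CPM, the level in KO replicate 2 was a median of 0.596 times the mean of KO replicates 1 and 3, from 0.350 for Atp5e to 1.23 for Atp5sl. For the same genes the mean of KO replicates 1 and 3 was 0.863 (Sdhc) to 1.18 (Ndufs6) times the WT mean, with a median of 0.985, and all 77 lay within 20% of it. The medians for KO replicate 2 by complex were 0.585, 0.598, 0.581, 0.560 and 0.602 from complex I to V.

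Short transcripts were low in KO replicate 2 across the genome, and OXPHOS transcripts are short. Their median length was 838 bases, against 2950 over all genes tested, and 79.0% were under 1500 bases, against 15.8%. On the log2(CPM + 0.5) scale, all genes of 500 to 750 bases were a median of −0.59 from KO replicates 1 and 3, and the 28 members of that length −0.84. All genes of 1000 to 1500 bases were at −0.32 and the 14 members at −0.73. All genes of 2000 to 3000 bases were at −0.073 and the 7 members at −0.36. The members therefore lay below the median gene of their length in each of the 7 length classes that held any, with 1 to 28 members a class. Across 81 members the difference correlated with log2 length (Pearson's r = 0.311, Spearman's rho = 0.364), as it did across 14100 genes (r = 0.297, rho = 0.354). Genes of 1 library are not independent, so no p is given. Between KO replicates 1 and 3 and the WT libraries the same members had no such slope (r = −0.096, rho = −0.18). With a smooth trend on length and GC content removed from each library, the median log2 fold change of the members was −0.18 with 6 libraries and −0.019 without KO replicate 2.

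**Figure D5:**
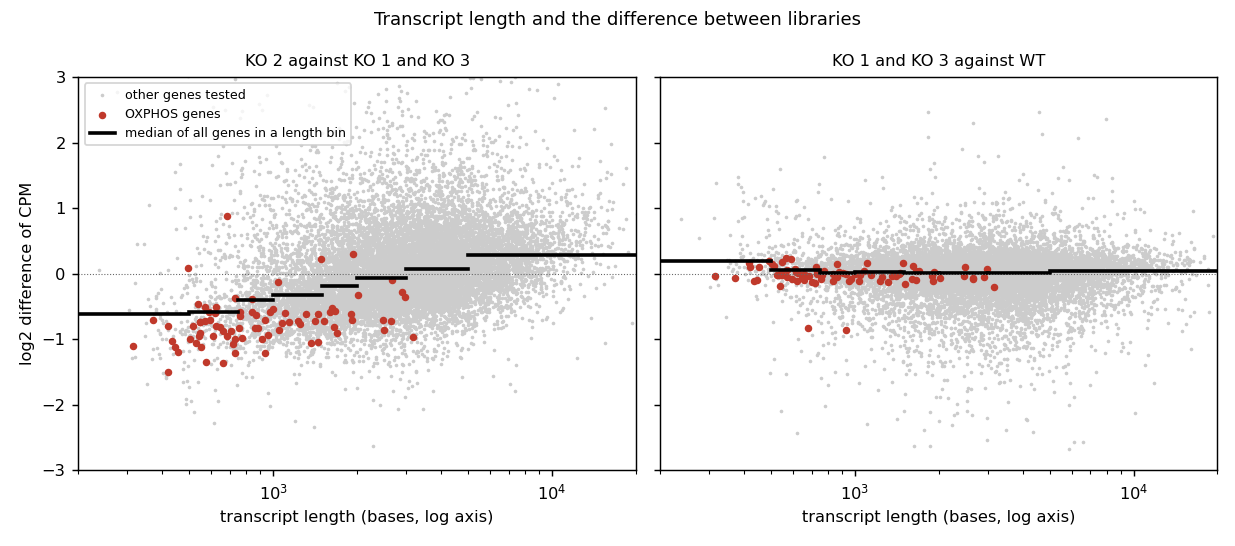
Log2 difference of CPM against transcript length (log axis) for KO replicate 2 minus KO replicates 1 and 3 (left) and for KO replicates 1 and 3 minus WT (right). Red points are OXPHOS genes, grey points other tested genes, of which a few lie beyond the vertical axis and are not drawn, and black bars are medians of all genes in a length class. On the left the bars climb from −0.62 for the shortest class to 0.29 for the longest and most red points lie below them, while on the right the red points lie near 0.

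Other genes of the mitochondrion were read from lists of their own, and the same test called 0 of them with 6 libraries. DESeq2 and limma voom also called 0 in the mitochondrial lists. Of 14 assembly factors of complex I, 4 had negative values, with a median log2 fold change of 0.080 (0.11 without KO replicate 2) and 0 at an unadjusted p under 0.05. Of 20 assembly factors of complexes III and IV, 11 were negative, with a median of −0.038 (0.045). Lyrm7, which brings the Rieske protein to complex III, was the one gene of that list at an unadjusted p under 0.05. It had 5.06, 4.69 and 3.48 CPM in KO, against 2.60, 2.69 and 2.67 CPM in WT, above every WT library in 3 of 3 KO libraries (log2 fold change 0.73, SE 0.24, edgeR adjusted p = 0.279; 0.67, SE 0.27, edgeR adjusted p = 0.251 without KO replicate 2). The 5 genes of ATP synthase assembly and inhibition had a median of −0.086 (0.045), with 0 at an unadjusted p under 0.05. The 16 genes of electron carriers, which include cytochromes c1 and c and the enzymes of ubiquinone synthesis, had a median of −0.062 (0.034) and 0 at that p. Cycs, cytochrome c itself, had 96.2, 84.3 and 107 CPM in KO, against 96.7, 103 and 107 CPM in WT. Of the 26 mitochondrially encoded genes listed, 0 were found by symbol in the count tables, so they were not analysed here.

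The 18 genes of the citric acid cycle had a median log2 fold change of −0.086 (−0.018 without KO replicate 2), with 16 negative and 0 at an unadjusted p under 0.05. Of 22 genes of protein import, 19 were negative, with a median of −0.15 (−0.017) and 1 at that p. Hspa9, the mitochondrial Hsp70 that pulls proteins through the inner membrane, had 214, 190 and 238 CPM in KO, against 254, 279 and 261 CPM in WT (log2 fold change −0.31, SE 0.12, edgeR adjusted p = 0.324; −0.24, SE 0.079, edgeR adjusted p = 0.178 without KO replicate 2). Hspa9 was lower in 3 of 3 KO libraries but did not pass the threshold. Of 76 mitochondrial ribosomal protein genes, 65 were negative, with a median of −0.12 (0.0024). At an unadjusted p under 0.05, 3 of the 76 were lower and 0 higher, beside 6.69% and 7.51% of all genes. Mrpl16 of the large subunit had the smallest p of them, with 12.3, 10.9 and 11.7 CPM in KO, against 16.7, 16.1 and 15.5 CPM in WT (log2 fold change −0.47, SE 0.13, edgeR adjusted p = 0.217; −0.43, SE 0.13, edgeR adjusted p = 0.125 without KO replicate 2).

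The 17 regulators of mitochondrial biogenesis had a median log2 fold change of 0.15 (0.087 without KO replicate 2), with 14 positive and 0 at an unadjusted p under 0.05 with 6 libraries. Nrf1, the factor of the motif described above, had 47.6, 54.3 and 47.3 CPM in KO, against 42.4, 45.3 and 41.6 CPM in WT. It was higher in 3 of 3 KO libraries and highest in KO replicate 2, where the subunit genes were lowest (log2 fold change 0.21, SE 0.10, edgeR adjusted p = 0.397; 0.13, SE 0.083 without KO replicate 2). Gabpa, which encodes an ETS factor, had 79.7, 105 and 91.9 CPM in KO, against 86.0, 78.3 and 80.4 CPM in WT. Ppargc1a, a coactivator of mitochondrial genes, had 7.53, 9.16 and 5.47 CPM in KO, against 7.05, 6.72 and 5.12 CPM in WT. Both overlapped between groups.

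Among 19 glycolysis genes the median log2 fold change was −0.067 with 6 libraries and 0.10 without KO replicate 2. Aldoc, an aldolase, had 2.97, 2.95 and 1.66 CPM in KO, against 6.98, 6.27 and 7.15 CPM in WT. It did not pass with 6 libraries (log2 fold change −1.44, SE 0.27, edgeR adjusted p = 0.0859) and fell without KO replicate 2 (log2 fold change −1.58, SE 0.28, edgeR adjusted p = 0.0193), 1 gene of 19 beside the background of 1.57%. DESeq2 called it with 6 libraries. The 78 tested genes of cytoplasmic ribosomal proteins, which are as short as OXPHOS genes with a median of 785.5 bases, were lowest in KO replicate 2 for 76 of 78. Their median log2 fold change was −0.094 with 6 libraries and 0.14 without KO replicate 2, with 0 called by edgeR, DESeq2 or limma voom. At an unadjusted p under 0.05 in edgeR, 1 was lower and 0 higher with 6 libraries, beside 6.69% and 7.51% of all genes. Without KO replicate 2, 1 was lower and 5 higher, beside 9.27% and 7.22%.

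Markers of other cell types were read in the same libraries. Markers of palatal mesenchyme, 8 of 8 detected, summed to 1264 to 1350 CPM in KO and 1068 to 1140 CPM in WT. Prrx1 made up most of that sum, with 773, 948 and 682 CPM in KO, against 562, 630 and 582 CPM in WT, and the other 7 summed to 402 to 581 CPM in KO and 466 to 558 CPM in WT. Of the 8 markers, 5 had negative log2 fold changes, with a median of −0.084 (−0.0024 without KO replicate 2). Markers of epithelium, 8 of 8, summed to 487, 281 and 509 CPM in KO, against 572, 653 and 692 CPM in WT. In edgeR, 3 of the 8 (Krt15, Cdh1 and Krt18) fell without KO replicate 2, beside 1.57% of all genes tested. Markers of endothelium summed to 182 to 208 CPM in KO and 228 to 251 CPM in WT. Those of macrophages summed to 36.1 to 39.4 CPM in KO and 52.2 to 56.8 CPM in WT. Of the 5 macrophage markers, 1 fell without KO replicate 2 (Mrc1), beside the same 1.57%. Markers of red blood cells summed to 660, 254 and 1346 CPM in KO, against 507, 749 and 967 CPM in WT. Those of glia and neural crest summed to 21.04 to 37.7 CPM in KO and 25.0 to 26.2 CPM in WT, and those of neurons to 31.8 to 128 CPM in KO and 72.9 to 129 CPM in WT. Of the brown fat markers, Ucp1, which defines that tissue, had at most 0.0552 CPM in KO and 0.0448 CPM in WT. Epithelial and red cell markers were lowest, and muscle markers highest, in KO replicate 2, and their part in the OXPHOS values was not tested.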

How the data were processed

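Polyadenylated RNA of 3 KO and 3 WT palatal shelf samples was made into stranded libraries and read as pairs of 25 bases, per the labels. The deposited values are whole-number read counts per gene symbol, 1 table per library, not normalized. The authors used TopHat2, SAMtools and HTSeq with build mm9, per the submitters' processing notes; their versions, the annotation and the strand setting were not stated there, so reads of overlapping or antisense genes may not be separated. The 5 category lines at the end of each table were left out of library sizes. Gene counts were 12721979 to 24916079 per library, and replicate pairs of a group differed by more than sampling noise (chi-square per degree of freedom 11.5 to 160).

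Counts were filtered with filterByExpr, scaled by TMM and tested with edgeR 4.0.16 (glmQLFit and glmQLFTest, robust, R 4.3.3), KO over WT, over all genes, with Benjamini-Hochberg adjustment and a threshold of 0.05. The test was checked on simulated counts. CPM uses TMM-scaled library sizes. Standard errors are the size of the log2 fold change over the square root of F, and 95% intervals use the degrees of freedom of the test. DESeq2 1.42.0, limma 3.58.1 (voom), other scalings and filters, each library left out, a replicate block and removal of a length and GC trend (natural splines of 5 degrees of freedom per library) were alternatives, and the earlier quasi-likelihood method of edgeR was an alternative added after the data were seen. Transcript length and GC content are medians over coding transcripts of GENCODE vM21 (GRCm38), matched by symbol for 86 of 86 members and 22952 of 23366 genes. Members, lists and tests were chosen with earlier results of these data known. Genes were named by rule: in each complex, the smallest p, the highest level per kb and the most positive and most negative log2 fold change with a mean of at least 1 CPM; isoform families; rows that are not subunits; and the smallest p of each other list, of which 1 gene is not reported here. Other named genes were chosen after their values were seen.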

Additional observations from a re-analysis of the deposited data

How the results depend on the processing

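In all 18 alternatives 0 OXPHOS genes passed the threshold, higher or lower, and the smallest adjusted p was 0.0638. The median log2 fold change of the members stayed negative in all of them, from −0.39 to −0.019, and that of complexes II to V stayed negative too, while that of complex I became 0.0015 without KO replicate 2 and with the length and GC trend removed. Leaving out 1 library at a time gave members' medians of −0.39 to −0.029, nearest 0 without KO replicate 2. Of 575 values of 32 named members, 19 had the other sign and 8 moved by at least the replicate SD. The counts over all genes, 14 higher and 62 lower, moved more: 161 and 325 with DESeq2, 9 higher with limma voom, 94 lower with no filter on low counts, 22 higher with the trend removed, and 195 and 234 without KO replicate 2 and with the trend removed. With 1 library left out they ranged from 0 to 80 higher and from 0 to 227 lower, the most without KO replicate 2 and the fewest without WT replicate 2 or 3 (0 genes by edgeR, although 1103 and 1117 had an unadjusted p below 0.05). The groups share only replicate numbers 2 and 3, whose deviations from the group means correlated at 0.239 and −0.153. These correlations cannot settle whether the numbers pair the samples, and the labels do not say whether litters were shared. The replicate block compares the groups through replicate numbers 2 and 3 only, since KO replicate 1 and WT replicate 4 have no partner. KO replicate 2 thus weighs more in the block fits than in the main fit. With the replicate block, 105 genes were higher and 196 lower, and 0 members. The members' median was −0.38, and 16 members (19.8%) had an unadjusted p under 0.05, beside 10.3% of all genes. With the block and the trend removed the counts were 132 and 187. The cause of these moves was not tested. Depth limits Cox7a1, Cox7b2, Cox8b, Cox8c and Ndufs5, which had at most 13 reads in any library.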
